A study of Mus musculus with 13 samples.

Results

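The genes described here encode proteins of the spliceosome and the hnRNP proteins, taken by symbol from every probe of the arrays whose gene begins with Snrp, Snrnp, Srsf, Sf3a, Sf3b, Lsm, Prpf, Hnrnp or U2af, older Sfrs and Hnrp symbols included. The rule used names alone and no measured value. It found 140 of 25697 probes, for 80 of 16593 genes. A gene was tested when at least 1 probe passed a detection p-value under 0.01 on at least 1 of the 13 arrays, which left 68 of these genes among 9787. The 68 fall into 6 core Sm genes, 16 genes of the U1, U2 and minor snRNPs with the U2 auxiliary factors, 12 LSm genes, 12 Prpf and tri-snRNP genes, 8 SR genes and 14 hnRNP genes. Snrpe, Sf3a2, Snrnp48, Snrpb2, Lsm1, Prpf4b, Snrnp40, Srsf12, Hnrnpd, Hnrnph2, Hnrnph3 and Hnrnpr were not detected on any array.

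The study asked whether a nucleus placed in mouse ooplasm changes its transcription when DNA is not replicated. Its text describes C3H/HeN oocytes that received C57Bl/6J cumulus cell nuclei after enucleation, by somatic cell nuclear transfer (SCNT), or that were injected intact with C57Bl/6J sperm, whereas the labels speak of in vitro fertilization, with oocytes and cumulus cells of B6C3F1 mice. Aphidicolin (Aph), an inhibitor of replicative DNA polymerases, was given at 2 µg/ml from 6 hours past activation (hpa) to 96 hpa. Aph+ embryos stay at the 1-cell stage, before S phase, while Aph- embryos cleave and were taken whatever stage they had reached. Pools of embryos or cells gave 3 fertilized Aph- arrays, 3 SCNT Aph- arrays, 3 fertilized Aph+ arrays, 1 SCNT Aph+ array, 1 MII oocyte array and 2 arrays of cumulus cells, the cell type of the donor nuclei. If the labels hold, the oocyte and cumulus arrays differ in strain from the oocytes and donors that the text describes. In comparisons with them strain then cannot be told apart from stage or cell type. The 3 arrays of an embryo group are labelled untimed, 96 h and blastocyst, and values are given below in that order. The deposited table heads its SCNT Aph+ column with a blastocyst suffix that the sample's title lacks, and the column was taken as the only SCNT Aph+ sample. The arrays of a group were taken as replicates, and nothing says that they were separate cultures, so p-values measure the spread between these pools. The MII oocyte array is shared by every comparison against the oocyte, and it and the SCNT Aph+ array were assumed to vary as the other groups do.

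The spliceosome removes introns from pre-mRNA and is built from small nuclear RNAs, each held in a ring of Sm proteins or of LSm proteins. U1 and U2 particles mark the splice sites, the tri-snRNP of U4, U6 and U5 brings in the catalytic centre, and SR and hnRNP proteins bound along the transcript favour or oppose the use of exons. A full-grown oocyte is transcriptionally silent and lives on stored mRNA, and the embryo must make its own once its genome becomes active. Not every LSm protein is a splicing protein: LSM10 and LSM11 belong to the U7 particle that processes histone mRNA, LSM1 to a ring that acts in mRNA decay, and LSM14A and LSM14B to cytoplasmic granules of stored or repressed mRNA. The role of LSM12 in splicing is not established.

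Mean intensity per array ranged from 89.8 to 465 and 5793 to 9715 probes were detected. Of the 68 genes, 48 were detected on the SCNT Aph+ array, the dimmest, and at most 63 on any array. On the log2 scale the fertilized Aph+ arrays correlated at 0.84 to 0.85 with each other over all genes tested, and the fertilized Aph- arrays at 0.98 to 0.99. The groups thus did not vary alike, although the model gave them a shared spread. That spread may be too small for the SCNT Aph+ array and its p-values too low, which was not tested. Of 12 oocyte marker genes, 11 were detected on the oocyte array, where Zp2 was not. Of 15 cumulus markers, 13 were detected on both cumulus arrays, where Foxl2 was on neither. All 10 trophectoderm markers were detected on each of the 6 Aph- arrays. On the SCNT Aph+ array 13 of the 15 cumulus markers were detected, at a summed level of 10620 against 9723 to 12000 in cumulus cells and 3583 to 4650 in SCNT Aph- embryos. The same array held 9 of the 12 oocyte markers, at a summed level of 20370 against 32230 in the oocyte and 322.2 to 594.5 in cumulus cells. In these pooled samples fewer cells of a type and less RNA per cell cannot be told apart, and normalization makes each value relative to the rest of its array.

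**Figure D1:**
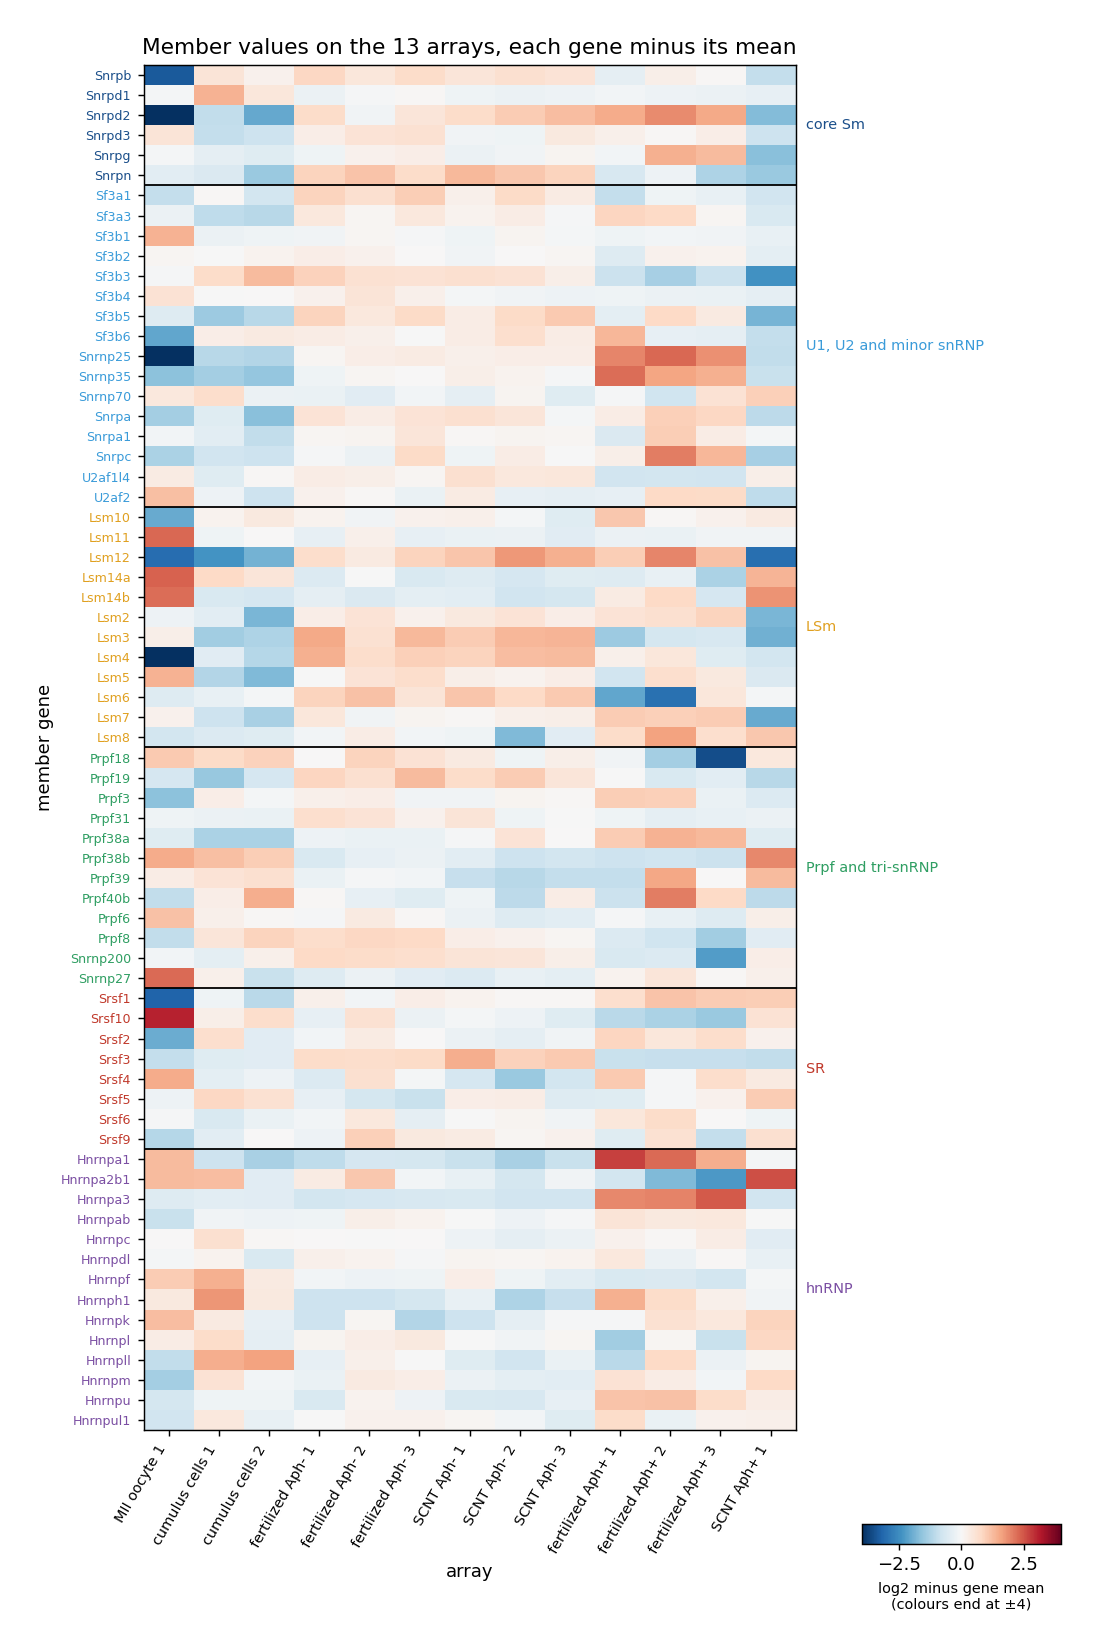
Heat map of the 68 spliceosome and hnRNP genes (rows, by group) on the 13 arrays (columns), coloured by the log2 level of a gene on an array minus its mean over all arrays. The 3 arrays of fertilized Aph- and of SCNT Aph- embryos look alike down the rows, and the oocyte and Aph+ arrays differ from them in both directions.

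Against the oocyte, splicing genes moved both ways. A gene was called at a Benjamini-Hochberg adjusted p under 0.05 in limma and a change of at least 2-fold. In fertilized Aph- embryos 18 of the 68 were higher (26.5%) and 12 lower (17.6%), beside 23% higher and 20.6% lower of all genes tested. SCNT Aph- embryos had 17 higher (25%) and 12 lower (17.6%), beside 23.2% and 21%. Fertilized Aph+ embryos had 19 higher (27.9%) and 13 lower (19.1%), beside 18.4% and 21.9%. The SCNT Aph+ array had 8 higher (11.8%) and 11 lower (16.2%), beside 16.8% and 16.4%. Cumulus cells had 14 in each direction (20.6%), beside 22% and 19.6%. These shares lie within 10 percentage points of those over all genes. The median log2 difference of the 68 was 0.41 in fertilized Aph- embryos, 0.21 in SCNT Aph- embryos, 0.25 in fertilized Aph+ embryos, -0.08 in SCNT Aph+ embryos and -0.04 in cumulus cells, where the medians over all genes lay between 0.03 and 0.08.

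The balance of higher and lower calls depended on the scaling. Scaling of arrays to their 75th percentile in place of quantile normalization gave 12 higher and 20 lower with fertilized Aph+, 2 and 21 with SCNT Aph+ and 11 and 22 with cumulus cells. Over all 9787 genes the counts were 1183 and 2415, 208 and 2106, and 1830 and 2414 in the same order. That scaling moved the median of all genes by -0.68 in fertilized Aph- embryos against the oocyte, the furthest, and by 0.34 in fertilized Aph+ against Aph- embryos. Without background correction the counts were 16 and 5 for fertilized Aph- embryos, 13 and 5 for SCNT Aph- embryos, 15 and 6 for fertilized Aph+ embryos, and 11 and 7 for cumulus cells. All genes then gave 1429 and 1349, 1457 and 1411, 1212 and 1436, and 1335 and 1350. With the log2 values the authors deposited, fertilized Aph- embryos had 21 higher and 9 lower, beside 2417 and 1910 of all genes. The genes called changed as well. Under scaling to the 75th percentile 3 of the 30 calls in fertilized Aph- embryos were lost, 5 of 29 for SCNT Aph-, 10 of 32 for fertilized Aph+, 10 of 19 for SCNT Aph+ and 3 of 28 for cumulus cells. Among genes described below these were Snrpn and Prpf19 in both Aph- groups, Prpf8 and Sf3b1 for SCNT Aph-, Snrpa, Hnrnpab and Sf3b1 for fertilized Aph+, Snrpb, Snrpd2, Snrnp25, Lsm10, Lsm11, Sf3b1 and Srsf2 for SCNT Aph+, and Hnrnpm. Without background correction 10, 13, 11, 8 and 10 calls were lost in the same order, with Lsm11 and Sf3b1 lost in all 5 comparisons, Hnrnpa1 in both Aph- groups and cumulus cells, and Snrnp35 in both Aph- groups. Lsm14b and Sf3b6 lost theirs in both Aph- groups, fertilized Aph+ embryos and cumulus cells, and Prpf38b in the same groups but cumulus cells. Prpf8 and Snrpa lost theirs for SCNT Aph-, and Snrpb and Snrpd2 for SCNT Aph+.

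**Figure D2:**
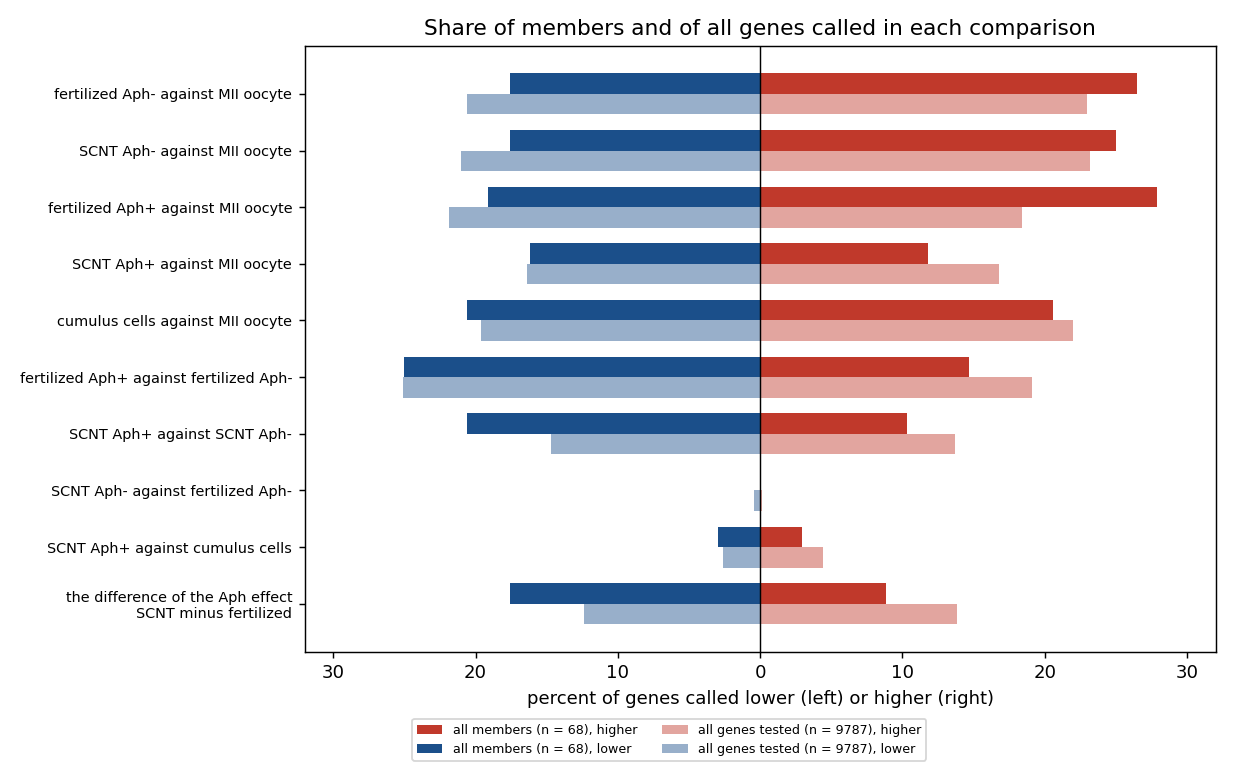
Percent of genes called higher (bars to the right) and lower (to the left) in each comparison, for the 68 spliceosome and hnRNP genes and for all 9787 genes tested. The largest gap among the comparisons with the oocyte is in fertilized Aph+ embryos, with 27.9% of the 68 genes higher against 18.4% of all genes.

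The core Sm proteins form the ring around the spliceosomal snRNAs. Among the 6 genes tested, 3 were higher and 0 lower than the oocyte in each of the Aph- groups, 2 and 0 with fertilized Aph+, 2 and 1 with SCNT Aph+ and 3 and 1 with cumulus cells. Snrpb, for the B and B' ring proteins, had a log2 level of 5.21 in the oocyte, where it was not detected, and 9.09 and 8.72 in cumulus cells. It stood at 9.39, 9.01 and 9.29 in fertilized Aph- embryos and at 9.06, 9.20 and 9.12 in SCNT Aph- embryos. In Aph+ embryos it stood at 8.20, 8.79 and 8.61 after fertilization and at 7.60 after SCNT. Every array was above the oocyte, and the fertilized Aph+ and SCNT Aph+ arrays were below all Aph- arrays. Snrpb was at least 11.8-fold higher in fertilized Aph- embryos (log2 difference 4.02 ± 0.30 SE, adjusted p = 6.64e-06), at least 7.26-fold in fertilized Aph+ embryos (adjusted p = 2.01e-05) and at least 3.82-fold in SCNT Aph+ embryos (adjusted p = 0.000993). A second Snrpb probe, not detected in the oocyte either, differed by 2.01 in fertilized Aph- and by 1.96 in fertilized Aph+ embryos. Where the lower group was not detected, a fold is a bound that sets the brighter group against the detection floor, and no fold is given where the brighter group lies under that floor. A group counted as detected when any of its arrays was, so a fold can include arrays under the floor.

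Snrpd2, another ring protein, was not detected in the oocyte, at 5.07. Its log2 levels were 8.29 and 7.25 in cumulus cells, 10.02, 9.15 and 9.78 in fertilized Aph- embryos, and 9.999, 10.30 and 10.51 in SCNT Aph- embryos. It reached 10.78, 11.16 and 10.78 in fertilized Aph+ embryos, and 7.54 in the SCNT Aph+ pool. The fertilized Aph+ arrays were thus the highest and the SCNT Aph+ array lay within the range of the cumulus arrays. The rise over the oocyte was at least 37.6-fold in fertilized Aph+ embryos (log2 difference 5.84 ± 0.46, adjusted p = 9.29e-06), at least 15.8-fold in fertilized Aph- embryos (adjusted p = 3.44e-05) and at least 3.64-fold in SCNT Aph+ embryos (adjusted p = 0.00764).

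Snrpn encodes the SmN protein, a close relative of SmB, and whether the probes of both genes bind each other's transcript was not tested. It was at 9.45 in the oocyte and 9.28 and 8.39 in cumulus cells, at 10.74, 11.01 and 10.61 in fertilized Aph- embryos and at 11.15, 10.93 and 10.76 in SCNT Aph- embryos. Its rise over the oocyte passed the test in both Aph- groups, 2.53-fold (adjusted p = 0.0331) and 2.82-fold (adjusted p = 0.0198). In fertilized Aph- embryos the call was lost without the untimed array (log2 difference 1.37) or the 96 h array (1.23). Snrpd3 was 2.50-fold lower than the oocyte on the SCNT Aph+ array (adjusted p = 0.0184) and 2.62-fold lower in cumulus cells (adjusted p = 0.00525). Snrpd1 was detected in cumulus cells only, at 5.88 and 4.93, with a mean under the oocyte's detection floor, so that no fold can be given. Its call there (adjusted p = 0.0443) was lost without any single one of the fertilized or SCNT Aph- arrays. It was lost too without background correction and under scaling to the 75th percentile. The log2 difference was 0.56 without the first cumulus array. Snrpg was between 5.60 and 7.49 on every array but that of SCNT Aph+ embryos, where it was not detected at 4.39, and was not called against the oocyte in any group.

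In the group of U1, U2 and minor snRNP genes, 5 of 16 were higher and 1 lower than the oocyte in each of the Aph- groups, 5 and 2 with fertilized Aph+, 1 and 3 with SCNT Aph+ and 3 and 2 with cumulus cells. Snrnp25, a protein of the minor spliceosome that removes U12-type introns, was higher than the oocyte in all 5 comparisons. It was not detected in the oocyte, at 5.27, and stood at 8.35 and 8.29 in cumulus cells. Its levels were 9.55, 9.74 and 9.79 in fertilized Aph- embryos and 9.68, 9.75 and 9.73 in SCNT Aph- embryos. The fertilized Aph+ arrays gave 11.43, 11.78 and 11.31, above every other array, and the SCNT Aph+ array gave 8.48, near the cumulus cells. The rise over the oocyte was at least 16.2-fold in fertilized Aph- (adjusted p = 1.82e-06), 16.5-fold in SCNT Aph- (adjusted p = 1.64e-06), 57-fold in fertilized Aph+ (adjusted p = 5.97e-07) and 7.01-fold in SCNT Aph+ embryos (adjusted p = 0.0001).

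Snrnp35, the minor spliceosome's relative of the U1 70K protein, was not detected in the oocyte at 5.64 and lay at 5.93 and 5.74 in cumulus cells. It rose to 7.13, 7.36 and 7.30 in fertilized Aph- embryos and to 7.55, 7.45 and 7.24 in SCNT Aph- embryos, at least 3.02-fold and 3.34-fold (adjusted p = 0.00289 and 0.00168). In fertilized Aph+ embryos it reached 9.54, 8.88 and 8.71, at least 10.3-fold over the oocyte (adjusted p = 3.22e-05). Snrpa, the U1 A protein, rose 3.49-fold in fertilized Aph- (adjusted p = 0.0109), 3.25-fold in SCNT Aph- (adjusted p = 0.0141) and 4.15-fold in fertilized Aph+ embryos (adjusted p = 0.00576). Sf3b6, which contacts the branch point, was at least 2.71-fold higher in fertilized Aph- embryos (adjusted p = 0.00976). Sf3b1, the largest subunit of the SF3B complex, was detected on the oocyte array alone, at 5.92, and was at least 2.21-fold lower in fertilized Aph- embryos (adjusted p = 0.000711). Its level is near the detection floor, and on the dimmest array no fold could be given.

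Among the LSm genes the changes were large and went both ways. Of 12 genes, 3 were higher and 3 lower than the oocyte in each Aph- group, 4 and 4 with fertilized Aph+, 2 and 5 with SCNT Aph+ and 2 and 6 with cumulus cells. Lsm4, a subunit of the ring on U6 and of the decay ring, stood at 6.10 in the oocyte. It was at 9.99 and 9.32 in cumulus cells, 11.85, 11.14 and 11.41 in fertilized Aph- embryos, and 11.33, 11.69 and 11.72 in SCNT Aph- embryos. Fertilized Aph+ embryos gave 10.66, 10.91 and 9.98 and the SCNT Aph+ array 9.71, so that all groups were well above the oocyte and every Aph+ array was below every Aph- array. Lsm4 was 41.4-fold higher in fertilized Aph- embryos (log2 difference 5.37 ± 0.43, adjusted p = 1.04e-05), 44.7-fold in SCNT Aph- (adjusted p = 8.63e-06), 21.4-fold in fertilized Aph+ (adjusted p = 3.31e-05) and 12.2-fold in SCNT Aph+ embryos (adjusted p = 0.000806).

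Lsm12 was not detected in the oocyte (4.29) or on the SCNT Aph+ array (4.33), and lay at 4.96 and 5.46 in cumulus cells. It was at 8.03, 7.70 and 8.24 in fertilized Aph- embryos. It was at 8.45, 9.07 and 8.75 in SCNT Aph- embryos and at 8.33, 9.28 and 8.52 in fertilized Aph+ embryos. The 9 arrays of these embryo groups were all above the other 4 arrays, and the rise over the oocyte was at least 4.99-fold, 8.47-fold and 8.20-fold (adjusted p = 8.13e-05, 2.4e-05 and 2.83e-05). Lsm10, of the U7 particle, was higher in all 5 comparisons, by 3.74-fold to 5.49-fold (adjusted p between 0.00106 and 0.00619). Its U7 partner Lsm11 went the other way. Lsm11 was at 6.99 in the oocyte and at 4.25 to 4.90 on the other arrays, 5.46-fold lower in fertilized Aph- embryos (adjusted p = 8.23e-05). It was detected on 1 of the 3 fertilized Aph- arrays, so this fold is not exact.

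Lsm14a and Lsm14b, of mRNA granules, were lower in embryos than in the oocyte. Lsm14a was at 12.04 in the oocyte, 9.13, 9.66 and 9.09 in fertilized Aph- embryos and 9.17, 9.004 and 9.19 in SCNT Aph- embryos. Cumulus cells gave 10.48 and 10.18, fertilized Aph+ embryos 9.16, 9.39 and 8.42, and the SCNT Aph+ pool 11.04. The oocyte was highest and the SCNT Aph+ array next. The fall was 6.69-fold in fertilized Aph- (adjusted p = 0.000327), 7.55-fold in SCNT Aph- (adjusted p = 0.000212) and 8.25-fold in fertilized Aph+ embryos (adjusted p = 0.000172). Lsm14b, its relative in oocyte mRNA storage, was at 7.29 in the oocyte and 6.87 on the SCNT Aph+ array. No signal above the detection threshold was found on any cumulus, fertilized Aph- or SCNT Aph- array, which put it at least 5.69-fold lower in fertilized Aph- embryos (adjusted p = 0.00102) and at least 4.62-fold in SCNT Aph- embryos (adjusted p = 0.000636). Fertilized Aph+ embryos gave 5.39, 5.85 and 4.40, with 1 array detected.

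Prpf and tri-snRNP genes showed smaller changes, with 3 of 12 higher and 3 lower in each Aph- group, 2 and 4 with fertilized Aph+, 0 and 1 with SCNT Aph+ and 2 and 2 with cumulus cells. Prpf8, the protein at the catalytic centre, was at 7.49 in the oocyte, 9.16, 9.29 and 9.26 in fertilized Aph- embryos and 8.72, 8.65 and 8.54 in SCNT Aph- embryos. That was a rise of 3.36-fold (adjusted p = 0.00205) and of 2.22-fold (adjusted p = 0.0185). Prpf19, the ubiquitin ligase that activates the spliceosome, rose 2.98-fold in fertilized Aph- embryos (adjusted p = 0.0112) and 2.65-fold in SCNT Aph- embryos (adjusted p = 0.0192), the latter lost without the 96 h SCNT Aph- array (log2 difference 1.26). Snrnp27, a tri-snRNP protein, was at 8.19 in the oocyte and between 5.05 and 6.41 on all 12 other arrays, 4.11-fold to 6.33-fold lower (adjusted p between 0.000353 and 0.0084). Prpf38b, a relative of the factor PRPF38A, was at 6.52 in the oocyte, 4.42, 4.71 and 4.78 in fertilized Aph- embryos, and not detected in SCNT Aph- or fertilized Aph+ embryos. It was 3.68-fold lower in fertilized Aph- embryos (adjusted p = 0.000316), a fold that is not exact, since 1 of those 3 arrays was detected.

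SR proteins bind exonic enhancers. Of the 8 SR genes, 3 were higher and 2 lower than the oocyte in each Aph- group, 2 and 1 with fertilized Aph+, 2 and 1 with SCNT Aph+ and 2 and 2 with cumulus cells. Srsf1, the first SR protein described as a splicing factor, was lowest in the oocyte at 7.20 and stood at 10.24 and 9.31 in cumulus cells. It was at 10.59, 10.29 and 10.67 in fertilized Aph- embryos and at 10.54, 10.44 and 10.45 in SCNT Aph- embryos. Fertilized Aph+ embryos gave 11.07, 11.53 and 11.40 and the SCNT Aph+ array 11.39, so that the 4 Aph+ arrays were the highest of the 13. Srsf1 rose 9.96-fold in fertilized Aph- (adjusted p = 6.21e-05), 9.68-fold in SCNT Aph- (adjusted p = 6.3e-05), 17.5-fold in fertilized Aph+ (adjusted p = 1.72e-05) and 18.2-fold in SCNT Aph+ embryos (adjusted p = 0.000146).

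Srsf2, which like SRSF1 activates exons, was at 9.06 in the oocyte and between 10.59 and 11.88 elsewhere. It rose 4.15-fold in fertilized Aph- (adjusted p = 0.0021), 6.27-fold in fertilized Aph+ (adjusted p = 0.000448) and 4.45-fold in SCNT Aph+ embryos (adjusted p = 0.0078), the last turning to a log2 difference of -0.17 under scaling to the 75th percentile and standing at -0.08 with the second Srsf2 probe. Srsf10, which acts as a repressor when dephosphorylated, was lower in all 5 comparisons. It was at 8.83 in the oocyte, 5.99 and 6.44 in cumulus cells, 5.43, 6.37 and 5.51 in fertilized Aph- and 5.67, 5.54 and 5.27 in SCNT Aph- embryos. It was not detected on the 3 fertilized Aph+ arrays (4.67, 4.49 and 4.27) and was at 6.33 on the SCNT Aph+ array. The fall was 8.31-fold in fertilized Aph- (log2 difference -3.05 ± 0.40, adjusted p = 0.000177) and 10.1-fold in SCNT Aph- embryos (adjusted p = 9.78e-05). A second Srsf10 probe was not detected in the oocyte and differed by -0.54 in fertilized Aph- and by 0.12 in SCNT Aph- embryos, so the fall rests on 1 probe.

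The hnRNP proteins coat nascent transcripts. Of their 14 genes, 1 was higher and 3 lower than the oocyte for fertilized Aph- embryos, 0 and 3 for SCNT Aph- embryos, 4 and 2 with fertilized Aph+ embryos, 1 and 0 with SCNT Aph+ embryos and 2 and 1 with cumulus cells. In the last 3 of these comparisons, in that order, scaling to the 75th percentile gave 1 and 3, 0 and 3, and 1 and 2. Hnrnpa1, a repressor of exon inclusion, was at 7.13 in the oocyte, 4.85, 5.19 and 5.19 in fertilized Aph- embryos and 4.99, 4.57 and 4.98 in SCNT Aph- embryos. It fell 4.16-fold (adjusted p = 0.00401) and 4.87-fold (adjusted p = 0.00213). The second of these folds is not exact, since 1 of the 3 SCNT Aph- arrays was detected. A second probe, not detected in the oocyte, differed by -0.17 and -0.07. Hnrnpa1 has many processed pseudogenes, and whether its probes read them was not tested. Hnrnpm was at 10.53 in the oocyte and between 11.46 and 12.71 elsewhere, 2.80-fold higher in fertilized Aph- (adjusted p = 0.00972), 3.10-fold in fertilized Aph+ (adjusted p = 0.00621) and 4.54-fold in SCNT Aph+ embryos (adjusted p = 0.0058). Under scaling to the 75th percentile its log2 differences were 0.54, 0.20 and 0.01 and all these calls were lost. Hnrnpab, an AU-rich element binding protein, was 2.49-fold higher in fertilized Aph+ embryos (adjusted p = 0.00171), a call that this scaling ended too (log2 difference 0.18).

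Lsm10, Lsm4, Snrnp25, Snrpb, Snrpd2, Srsf1 and Srsf2 were higher in all 5 comparisons with the oocyte, which is 7 of the 68 genes against 6.69% of all genes tested. Lsm11, Sf3b1, Snrnp27 and Srsf10 were lower in all 5, which is 4 of the 68 against 10% of all genes. On the SCNT Aph+ array the calls of Lsm10, Snrnp25, Snrpb, Snrpd2, Srsf2, Lsm11 and Sf3b1 were lost under scaling to the 75th percentile, as were those of Sf3b1 in SCNT Aph- and fertilized Aph+ embryos. Without background correction Snrpb and Snrpd2 lost theirs on the SCNT Aph+ array, and Lsm11 and Sf3b1 in all 5 comparisons. The comparisons share the oocyte array, so a gene that is unusual on that array appears in all of them.

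**Figure D3:**
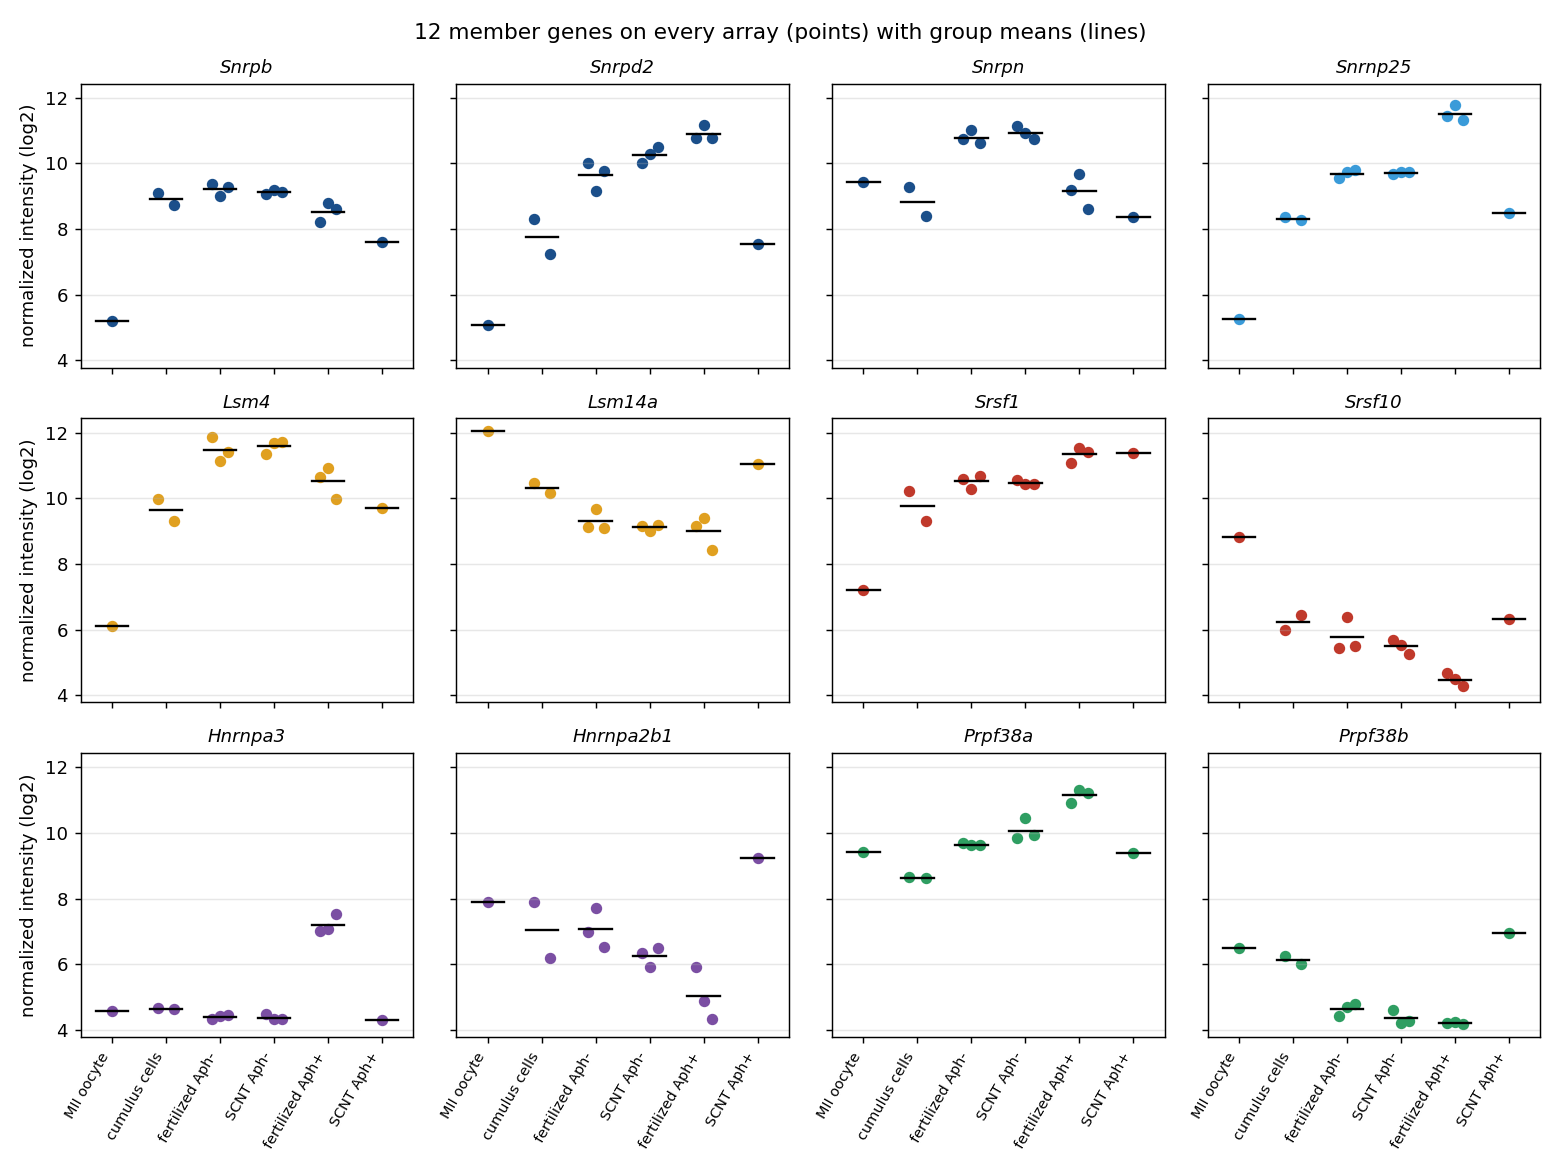
Log2 normalised intensity of 12 of the genes on each array, one panel per gene, with a point per array and a bar at the group mean. Snrpb, Lsm4 and Srsf1 lie above the oocyte on every array, whereas Srsf10 and Lsm14a lie below it on every array.

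Promoters are shown for 5 of the members that moved the same way against the oocyte throughout and for which RefSeq (GRCm38.p6) gave one. They cover 250 bases before to 50 bases after the transcription start, written 5′ to 3′ on the gene's strand. Capitals mark matches, on either strand, to motifs, none of which lies inside another. The CCAAT box was searched with the letters of its name. The GC box was searched as GGGCGG. The TATA box was searched as TATAAA. The ETS motif was searched as CCGGAAG. Snrpd2, Snrnp25 and Srsf1 were higher in all 5 comparisons.
Snrpd2, chr7:19149588-19149887, + strand: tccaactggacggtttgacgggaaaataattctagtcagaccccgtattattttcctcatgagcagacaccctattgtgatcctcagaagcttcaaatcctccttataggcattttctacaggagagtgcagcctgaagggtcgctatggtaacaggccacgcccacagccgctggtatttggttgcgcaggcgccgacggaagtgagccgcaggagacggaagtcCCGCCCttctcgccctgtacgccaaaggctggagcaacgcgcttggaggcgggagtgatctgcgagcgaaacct
Snrnp25, chr11:32205165-32205464, + strand: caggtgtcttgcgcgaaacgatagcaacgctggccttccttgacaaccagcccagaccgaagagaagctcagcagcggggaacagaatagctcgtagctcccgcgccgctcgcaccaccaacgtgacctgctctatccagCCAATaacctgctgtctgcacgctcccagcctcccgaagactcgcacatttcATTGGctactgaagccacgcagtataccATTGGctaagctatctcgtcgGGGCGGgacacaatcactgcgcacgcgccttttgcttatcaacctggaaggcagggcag
Srsf1, chr11:88047123-88047422, + strand: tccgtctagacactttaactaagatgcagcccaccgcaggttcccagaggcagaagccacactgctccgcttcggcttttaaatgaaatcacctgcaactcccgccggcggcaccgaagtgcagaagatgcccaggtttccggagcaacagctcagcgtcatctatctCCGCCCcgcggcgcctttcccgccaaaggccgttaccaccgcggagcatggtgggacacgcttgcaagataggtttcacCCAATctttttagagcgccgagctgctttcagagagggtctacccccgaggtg
Srsf10 and Lsm11 were lower in all 5.
Srsf10, chr4:135855821-135856120, + strand: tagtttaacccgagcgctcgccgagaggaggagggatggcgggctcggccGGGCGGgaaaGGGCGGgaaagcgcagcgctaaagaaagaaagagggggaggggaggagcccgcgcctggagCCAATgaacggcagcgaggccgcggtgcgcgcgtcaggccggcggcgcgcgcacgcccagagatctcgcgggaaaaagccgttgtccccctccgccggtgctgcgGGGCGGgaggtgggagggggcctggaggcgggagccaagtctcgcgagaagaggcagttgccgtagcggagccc
Lsm11, chr11:45944886-45945185, - strand: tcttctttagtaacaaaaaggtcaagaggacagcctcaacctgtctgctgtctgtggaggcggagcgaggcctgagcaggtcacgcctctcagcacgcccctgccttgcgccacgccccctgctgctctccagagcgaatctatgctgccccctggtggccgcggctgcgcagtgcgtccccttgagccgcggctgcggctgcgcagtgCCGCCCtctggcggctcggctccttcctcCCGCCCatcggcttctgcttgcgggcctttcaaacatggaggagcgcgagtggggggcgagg
All 5 windows shown hold a GC box and none of them holds a TATA or ETS match. Snrnp25 has 3 matches to CCAAT, Srsf1 and Srsf10 1 each, and the other windows 0. RefSeq gave 79 promoter windows for 59 of the 68 tested genes. A GC box was in 65.8% of these windows against 35.7% of all 32851 windows, a CCAAT box in 48.1% against 37.4%, an ETS motif in 25.3% against 8.86%, and a TATA box in 8.86% against 13.6%. Of the genes higher in all 5 comparisons, 5 had a window, with CCAAT in 4, a GC box in 5, a TATA box in 1 and an ETS motif in 0. Of the genes lower in all 5, 4 had a window, with CCAAT in 1, a GC box in 4, a TATA box in 0 and an ETS motif in 1. A match describes letters only.

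Aph in fertilized embryos raised and lowered different splicing genes. Between fertilized Aph+ and Aph- embryos 10 of the 68 were higher (14.7%) and 17 lower (25%) at adjusted p under 0.05, beside 19.1% and 25.1% of all genes. The median log2 difference of the 68 was 0.07 against -0.03 over all genes. Under scaling to the 75th percentile their median, taken relative to all genes, was -0.65 in place of 0.10. Of the 27 calls, 11 were lost or turned under that scaling, among them those of Hnrnph1, Hnrnpu, Lsm7, Prpf38a, Snrpd2, Srsf1 and Srsf3 given below. Without the untimed fertilized Aph+ array 16 of the 68 were higher. Other measures moved with this comparison. The 12 oocyte markers had a summed level of 12920 to 17170 in Aph+ and 379.9 to 628.7 in Aph- embryos, with 9 and 3 of them detected on every array. The 10 trophectoderm markers had 2608 to 3278 against 26800 to 28500, with 4 and 10 detected on every array. Mean intensity was 116 to 129 on the Aph+ and 316 to 374 on the Aph- arrays. Their part in the result was not tested.

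Of the hnRNP genes 4 of 14 were higher and 1 lower, or 3 and 4 under scaling to the 75th percentile. Hnrnpa1 stood at 8.60, 8.15 and 7.34 in fertilized Aph+ embryos against 4.85, 5.19 and 5.19 in Aph- embryos, 7.74-fold higher (log2 difference 2.95 ± 0.32, adjusted p = 6.78e-05). The second Hnrnpa1 probe differed by 2.68. Its paralog Hnrnpa3 was detected in fertilized Aph+ embryos alone, at 7.01, 7.08 and 7.53, and lay at 4.32 to 4.66 on all other arrays. It was at least 5.39-fold higher (adjusted p = 5.08e-06). Hnrnpu, a scaffold protein of the nucleus, was at 8.46, 8.48 and 8.06 against 6.70, 7.45 and 7.11, 2.38-fold higher (adjusted p = 0.00187). Hnrnph1, which binds G-rich elements, was 2.97-fold higher (adjusted p = 0.012). The groups did not overlap in these 4 genes, which the rule for naming genes required. Under scaling to the 75th percentile Hnrnpu (log2 difference 0.25) and Hnrnph1 (0.59) were no longer called. Hnrnpa2b1, which carries RNA as well as regulating splicing, went the other way, at 5.92, 4.89 and 4.33 against 6.98, 7.71 and 6.53. It was 4.07-fold lower (adjusted p = 0.0109), a size that is not exact, since 1 of the 3 Aph+ arrays was detected. Its second probe, detected on 2 arrays of the 13, differed by 0.32.

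The minor spliceosome genes Snrnp25 and Snrnp35 rose. Snrnp25 was 3.51-fold higher (log2 difference 1.81 ± 0.18, adjusted p = 4.31e-05) and Snrnp35 3.43-fold (1.78 ± 0.24, adjusted p = 0.000255). Every Aph+ array was above every Aph- array, which the rule for naming genes required. Sf3b3 and Sf3a1, for subunits of the U2 particle, fell. Sf3b3 was at 6.35, 5.87 and 6.36 against 8.12, 7.82 and 7.79, 3.30-fold lower (adjusted p = 0.000285), and Sf3a1 was 2.49-fold lower (adjusted p = 0.00494). Over the whole group of 16, 2 were higher and 4 lower. U2af1l4, a paralog of the U2AF small subunit, was called at a log2 difference of -0.96 (adjusted p = 0.0027) near the detection floor and stood at 0.23 under scaling to the 75th percentile.

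Of the Prpf and tri-snRNP genes, 1 of 12 was higher and 5 were lower. The genes Prpf8 and Snrnp200, for proteins of the U5 core, fell. Prpf8 was at 7.94, 7.68 and 7.07 against 9.16, 9.29 and 9.26, 3.19-fold lower (adjusted p = 0.000389), and Snrnp200, the helicase that unwinds U4 from U6, was at 8.18, 8.25 and 6.56 against 9.57, 9.53 and 9.46, 3.62-fold lower (adjusted p = 0.00478). Prpf19 was 2.39-fold lower (adjusted p = 0.00659). Prpf38a, which joins with the tri-snRNP before activation, was the gene that rose. It stood at 10.93, 11.30 and 11.21 against 9.70, 9.63 and 9.63, 2.82-fold higher (adjusted p = 0.000318), and its other 3 probes differed by 1.78, 1.39 and 0.74. The call was lost under scaling to the 75th percentile (log2 difference 0.60).

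Of the core Sm genes, 1 of 6 was higher and 2 lower. Snrpd2 was 2.39-fold higher (adjusted p = 0.0108), with a log2 difference of 0.34 and no call under scaling to the 75th percentile. Snrpn was at 9.20, 9.67 and 8.62 against 10.74, 11.01 and 10.61, 3.08-fold lower (adjusted p = 0.00244). Snrpb was 1.62-fold lower (adjusted p = 0.0237), a call lost without the untimed Aph+ array (log2 difference -0.53), the untimed Aph- array (-0.62) or the blastocyst Aph- array (-0.67). Of the LSm genes, 1 of 12 was higher and 3 lower. Lsm3, a subunit of the ring on U6, was at 6.40, 7.17 and 7.22 against 9.37, 8.48 and 9.18, 4.23-fold lower (adjusted p = 0.000377), and Lsm7 of the same ring was 1.81-fold higher (adjusted p = 0.0077). Of the SR genes, 1 of 8 was higher and 2 lower. Srsf3, at 5.93, 5.89 and 5.95 in Aph- embryos, was not detected on any Aph+ array and was at least 1.04-fold lower (adjusted p = 7.72e-05). Srsf1 was 1.76-fold higher (adjusted p = 0.0269), with a log2 difference of -0.03 under scaling to the 75th percentile, and its call was lost without either of 2 Aph- arrays, untimed (0.86) or 96 h (0.71), or 2 Aph+ arrays, 96 h (0.72) or blastocyst (0.78).

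In SCNT embryos, where 1 array stood for Aph+, more splicing genes fell than rose. Against SCNT Aph- embryos 7 of the 68 were higher (10.3%) and 14 lower (20.6%), beside 13.7% and 14.7% of all genes, with a median log2 difference of -0.20 against -0.10. Scaling to the 75th percentile gave 3 higher and 28 lower, beside 767 and 2244 of all 9787 genes. It gave a median relative to all genes of -1.18 in place of -0.10. Of the 21 calls, 7 were lost under that scaling, those of Hnrnpa2b1, Hnrnpm, Lsm14a, Lsm7, Lsm8, Snrpg and Srsf3. Without the 96 h or the blastocyst fertilized Aph- array, which are in neither group compared but enter the normalization and the shared spread, 4 were higher. The cumulus markers on this array, at a summed level of 10620 against 3583 to 4650 in SCNT Aph- embryos, moved with these differences, and their part in the result was not tested. Over the 68 genes the array correlated at 0.90 to 0.92 with the cumulus arrays and at 0.79 to 0.83 with the SCNT Aph- arrays.

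Of the core Sm genes, 4 of 6 fell and none rose. Snrpb, Snrpd2 and Snrpn were also lower with the deposited values, without background correction and under scaling to the 75th percentile. Snrpd2 was at 7.54 against 9.999, 10.30 and 10.51, 6.65-fold lower (log2 difference -2.73 ± 0.46, adjusted p = 0.00184). Snrpn was at 8.38 against 11.15, 10.93 and 10.76, 5.92-fold lower (adjusted p = 0.00229), and Snrpb was 2.87-fold lower (adjusted p = 0.00457). The other, Snrpg, was not detected on the SCNT Aph+ array and was at least 1.01-fold lower (adjusted p = 0.0451). Its call was lost in each refit without 1 SCNT Aph-, fertilized Aph- or cumulus array (fitted log2 difference -1.41 without the second cumulus array), without background correction (-0.42) and under scaling to the 75th percentile (-0.37). In its place Snrpd3 was called under both of these (-0.67 and -2.33). Of the U1, U2 and minor snRNP genes, 3 of 16 fell and 0 rose. Sf3b5, a small SF3B subunit, was at 7.997 against 10.15, 10.61 and 10.90, 5.88-fold lower (adjusted p = 0.0027). Sf3b3 was not detected, at least 3.32-fold lower (adjusted p = 0.000226), and Snrnp25 was 2.36-fold lower (adjusted p = 0.00567).

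The LSm genes divided, with 3 of 12 higher and 5 lower. Lsm12 was not detected, at 4.33 against 8.45, 9.07 and 8.75, at least 6.92-fold lower (log2 difference -4.42 ± 0.42, adjusted p = 0.000103). Lsm3 was not detected either, at 5.96 against 8.90, 9.19 and 9.22, at least 8.81-fold lower (adjusted p = 0.000518), and Lsm2, of the same ring, was 4.63-fold lower (adjusted p = 0.00562). The genes that stood higher were Lsm8, of the ring on U6, by 3.63-fold (adjusted p = 0.0391), and the granule genes Lsm14a, by 3.79-fold (adjusted p = 0.00537), and Lsm14b, by at least 3.45-fold (adjusted p = 0.00353). Under scaling to the 75th percentile the calls of Lsm14a (log2 difference 0.07) and Lsm8 (0.09) were lost. The Lsm8 call was also lost without any single fertilized Aph- array, at a log2 difference of 1.86 each time. Lsm14a and Lsm14b were at their highest in the oocyte, and the oocyte markers were at a summed level of 20370 on this array against 528.5 to 629 in SCNT Aph- embryos. The part of retained oocyte mRNA in these values was not tested.

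Of the Prpf and tri-snRNP genes 2 of 12 rose and 1 fell. Prpf38b was at 6.96 against 4.62, 4.21 and 4.29, none of them detected, at least 3.69-fold higher (adjusted p = 0.00014), and Prpf19 was 3.66-fold lower (adjusted p = 0.00825). Of the SR genes 0 of 8 rose and 1, Srsf3, fell, at least 1.29-fold (adjusted p = 0.000315). Of the hnRNP genes 2 of 14 rose and 0 fell, or 0 and 3 under scaling to the 75th percentile. Hnrnpa2b1 was at 9.23 against 6.34, 5.93 and 6.50, 7.87-fold higher (adjusted p = 0.0141), with its second probe at a difference of -0.15, and the call was lost under scaling to the 75th percentile (log2 difference 1.29). Hnrnpm was 2.23-fold higher (log2 difference 1.15, adjusted p = 0.0474), and stood at -0.04 under scaling to the 75th percentile. Its call was lost without 1 of several arrays, at 1.09 without the blastocyst SCNT Aph- array.

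The effect of Aph differed between SCNT and fertilized embryos for 18 genes. The difference of the effects, SCNT minus fertilized, was called higher for 6 of the 68 (8.82%) and lower for 12 (17.6%), beside 13.8% and 12.4% of all genes. Under scaling to the 75th percentile it was called higher for 1 and lower for 7, beside 261 and 673 of all 9787 genes. Aph lowered Lsm3, Lsm4, Prpf19, Sf3b3, Snrpb, Snrpn and Srsf3 in both kinds of embryo, of which Lsm4 lost its call in fertilized embryos (1.93-fold lower, adjusted p = 0.0306) without the untimed (log2 difference -0.76) or blastocyst (-0.99) Aph- array or the blastocyst Aph+ array (-0.68). It raised Lsm7, Snrnp25 and Snrpd2 in fertilized embryos and lowered them after SCNT, and did the reverse with Hnrnpa2b1. Of these 8 calls, scaling to the 75th percentile ended both of Lsm7, that of Snrpd2 in fertilized embryos (log2 difference 0.34) and that of Hnrnpa2b1 after SCNT (1.29). No gene of the 68 was called higher in both, and these joint counts were not made over all genes. The difference was 5.004 for Hnrnpa2b1 (adjusted p = 0.00345) and -3.99 for Snrpd2 (adjusted p = 0.001). Hnrnpa2b1 was detected on 1 of the 3 fertilized Aph+ arrays, so its difference is not exact in size. Its second probe differed by 0.32 with Aph after fertilization and by -0.15 after SCNT. Lsm12 had a fitted difference of -5.14 (adjusted p = 0.000215), which rests on a level below the detection floor of the SCNT Aph+ array. For 9 of the 18 genes (Hnrnpa1, Hnrnpa3, Lsm12, Lsm14b, Lsm7, Prpf38b, Snrpc, Snrpg and Srsf10) at least 1 of the groups was not detected on any of its arrays, so their differences have no exact size. Scaling to the 75th percentile ended 10 of the 18 calls, those of Lsm14a, Prpf6 and all of these 9 but Lsm12. By group, 0 of 6 core Sm genes were higher and 2 lower in this test, 0 and 4 of the 16 U1, U2 and minor snRNP genes, 2 and 3 of the 12 LSm genes, 2 and 1 of the 12 Prpf and tri-snRNP genes, 1 and 0 of the 8 SR genes, and 1 and 2 of the 14 hnRNP genes. These values carry the single SCNT Aph+ array, its cumulus markers and its low intensity, whose part was not tested.

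**Figure D4:**
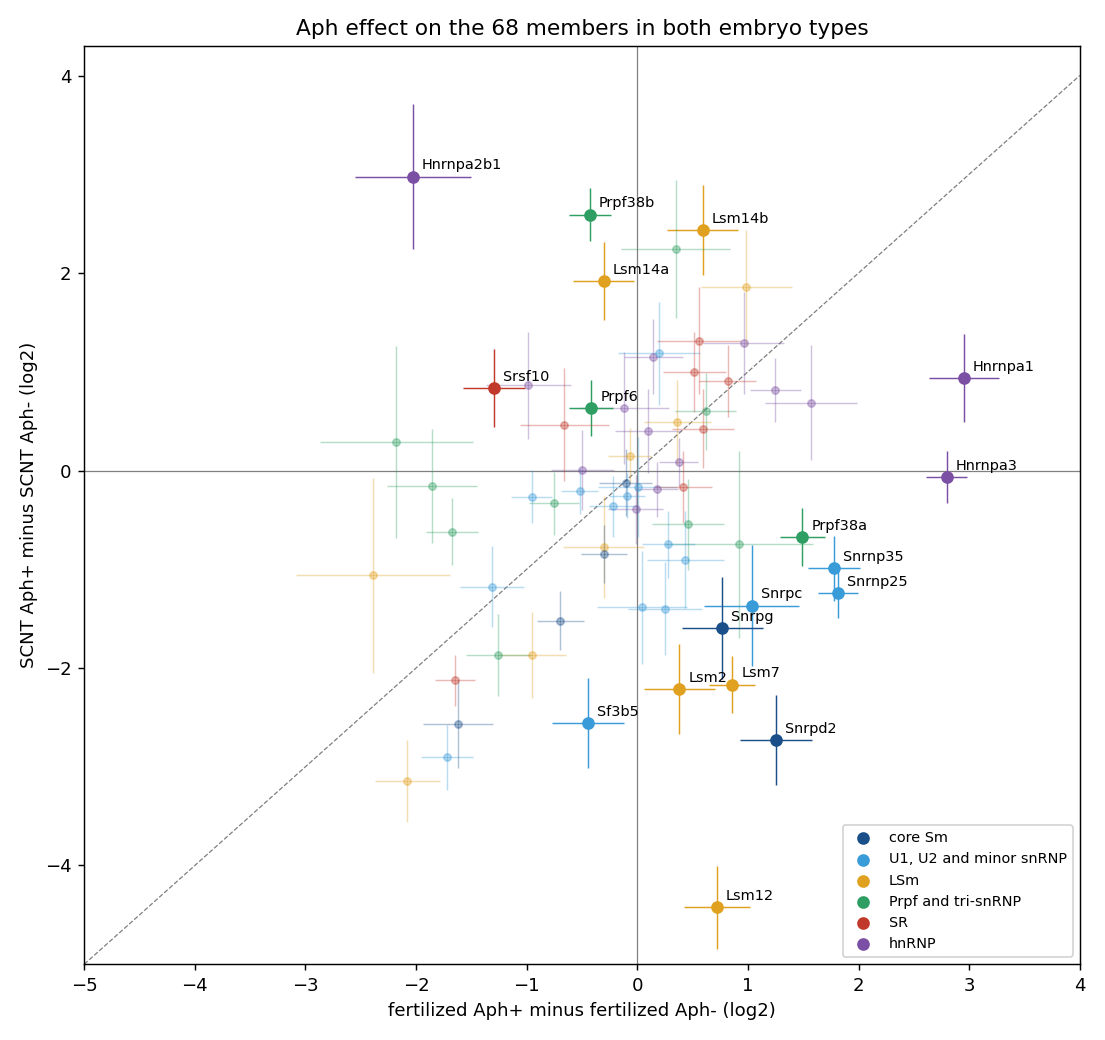
Log2 difference between Aph+ and Aph- embryos after fertilization (horizontal axis) and after SCNT (vertical axis) for the 68 genes, with standard error bars and labels on the 18 genes whose effects differed at adjusted p under 0.05. Lsm12, not detected on the SCNT Aph+ array, and Snrpd2 lie far below the line of equal effects. Hnrnpa2b1, detected on 1 of the 3 fertilized Aph+ arrays, lies far above that line.

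Without Aph, no splicing gene passed the test between SCNT and fertilized embryos. None of the 68 was called in limma between SCNT Aph- and fertilized Aph- embryos, beside 0.163% higher and 0.398% lower of all genes. In the same test 7 of the 68 were at an unadjusted p under 0.05, beside 934 of all 9787 genes. Log2 differences ran from -0.97 to 0.76, with a median of -0.14 against 0.00 over all genes. The arrays of both groups overlapped for 53 of the 68, a count not made over all genes, so neither likeness nor difference is read from it. A fit of these groups alone called 1 gene, Prpf39, named because it was the only one (log2 difference -0.85, adjusted p = 0.0289).

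The SCNT Aph+ array and the cumulus cells differed for 4 of the 68 genes, 2 higher (2.94%) and 2 lower (2.94%), beside 4.39% and 2.6% of all genes. Scaling to the 75th percentile gave 1 higher and 9 lower, beside 193 and 911 of all 9787 genes. The deposited values gave 1 and 3, beside 368 and 248. Lsm14b was at least 3.24-fold higher than in cumulus cells (adjusted p = 0.0152). Sf3b3, at 7.95 and 8.49 in cumulus cells and not detected on the SCNT Aph+ array at 4.79, was at least 4.77-fold lower (adjusted p = 0.000358). Srsf1 was 3.06-fold higher (log2 difference 1.61, adjusted p = 0.0349) and Snrpb 2.46-fold lower (-1.30, adjusted p = 0.0395), and both calls were lost without any single one of the Aph- arrays of fertilized or SCNT embryos. Srsf1 was at 1.19 without the second cumulus array and Snrpb at -1.12 without the first, and the second Snrpb probe differed by 0.07. Without the second cumulus array 6 genes were lower, and in a fit of these groups alone none was called.

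Splicing genes outside the named families, written as 5 lists with 82 genes tested, gave 26 higher and 11 lower than the oocyte for fertilized Aph- embryos, 30 and 12 for SCNT Aph-, 33 and 15 for fertilized Aph+ and 21 and 16 for SCNT Aph+ embryos. Of all genes 23% and 20.6%, 23.2% and 21%, 18.4% and 21.9%, and 16.8% and 16.4% were called in these comparisons. Values of single genes named from these lists were not taken under the other scalings, nor was their detection looked at. Of 14 genes that load Sm proteins onto snRNA, 7 were higher and 0 lower for fertilized Aph- embryos, 10 and 0 for SCNT Aph- embryos, and 8 and 2 for fertilized Aph+ embryos. Gemin2, which holds Sm proteins within the SMN complex, had log2 differences from the oocyte of 4.40 ± 0.34, 4.64 ± 0.34 and 4.84 ± 0.34 in those groups (adjusted p = 8.27e-06, 5.81e-06 and 5.62e-06). Ddx20, a helicase of the same complex, had 3.43, 3.38 and 3.98 (adjusted p = 1.35e-05, 1.41e-05 and 6.86e-06). On the SCNT Aph+ array against SCNT Aph- embryos 7 of the 14 were lower and 0 higher, beside 14.7% and 13.7% of all genes, with Gemin4 at -2.38 (adjusted p = 0.0176) and Gemin2 at -2.08 (adjusted p = 0.00172). Fertilized Aph+ embryos had 3 higher and 2 lower than Aph- embryos, beside 19.1% and 25.1%, with Snupn, the snRNP import adaptor, at 2.52 (adjusted p = 0.000141) and Tgs1, which makes the snRNA cap, at 1.95 (adjusted p = 0.00158).

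Among 10 genes of the exon junction complex and cap binding, 5 were higher and 3 lower in fertilized Aph+ than in Aph- embryos, and 1 and 5 after SCNT, beside 19.1% and 25.1%, and 13.7% and 14.7%, of all genes. Eif4a3, the core helicase of the complex, was at 2.46 ± 0.27 (adjusted p = 7.58e-05) after fertilization and at -1.33 ± 0.38 (adjusted p = 0.0269) after SCNT, a difference of -3.79 (adjusted p = 0.000536). Acin1, an accessory protein, was higher in both, at 3.86 (adjusted p = 9.5e-06) and 4.74 (adjusted p = 5.71e-05). Rbm8a, another core protein, was lower in both, at -2.14 (adjusted p = 0.000795) and -1.64 (adjusted p = 0.0316). Of 37 other spliceosome proteins, Cdc5l, a partner of PRPF19, was at 5.46 in fertilized Aph- embryos (adjusted p = 4.06e-06) and at 4.57 in fertilized Aph+ embryos against the oocyte (adjusted p = 1.16e-05). Cwc22, which recruits EIF4A3 to the spliceosome, was at 3.91 in fertilized Aph+ against Aph- embryos (adjusted p = 1.4e-05), with a difference of the SCNT effect from this of -3.81 (adjusted p = 0.00115).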

How the data were processed

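The authors deposited linear intensity values, mean bead brightness summarised with BeadStudio 3.2 with no background subtraction or normalization, each with a detection p-value. They also deposited log2 values, which were background-adjusted and normalized. Notes by the submitters also name RMA and lumi. Genome build and annotation are not given in the sources used here.

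From the intensities, neqc of limma 3.58.1 in R 4.3.3 (offset 16) made background-corrected, quantile normalized log2 values. The brightest probe stood for each symbol. A limma model of 6 groups with 7 residual degrees of freedom and eBayes gave differences, standard errors and Benjamini-Hochberg adjusted p-values over all 9787 genes. A bound replaces a fold where a group was not detected on any of its arrays. The steps were tested on simulated data.

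The members and lists were chosen with earlier results of these data known. Named genes are all core Sm genes and, per comparison and group, up to 3 rises and 3 falls past the threshold without overlap (up to 2 for other lists). Not all of them are described above. Those left out include Lsm6 and Prpf18, with the largest falls of their groups in fertilized Aph+ against Aph- embryos (log2 differences -2.39 and -2.18). Both calls were lost without some single array. Hnrnpk and Hnrnpf, lower than the oocyte in both Aph- groups, are left out too. The genes called in both Aph comparisons or in all 5 oocyte comparisons are all named. Of 20 alternatives, 11 left out 1 array. The others changed background correction, scaling, filter, probe choice, blocks, eBayes settings or the groups fitted, or used the deposited values.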

Additional observations from a re-analysis of the deposited data

Results flagged for a closer look

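For 18 of the 68 genes the effect of Aph, Aph+ against Aph-, differed between SCNT and fertilized embryos in limma's test of the difference itself (log2, SCNT minus fertilized). Of the 68, 8.82% were called higher and 17.6% lower in this test, beside 13.8% and 12.4% of all genes tested. The difference was positive for Hnrnpa2b1 at 5.004, Prpf38b at 3.02, Lsm14a at 2.22, Srsf10 at 2.13, Lsm14b at 1.85 and Prpf6 at 1.05. It was negative for Hnrnpa1 at -2.02, Sf3b5 at -2.11, Prpf38a at -2.17, Snrpg at -2.36, Snrpc at -2.40, Lsm2 at -2.59, Snrnp35 at -2.77, Hnrnpa3 at -2.86, Lsm7 at -3.03, Snrnp25 at -3.05, Snrpd2 at -3.99 and Lsm12 at -5.14. The adjusted p ran from 0.000215 for Lsm12 to 0.0499 for Prpf6. Every one of these values rests on the single SCNT Aph+ array, and for 9 of the genes, Lsm12 among them, a group was not detected, so that the value has no exact size. Hnrnpa2b1 was detected on 1 of the 3 fertilized Aph+ arrays, so its value is not exact either. Under scaling to the 75th percentile 10 of the 18 calls were lost. The calls of Snrpg, Snrpc, Lsm14b, Prpf6 and Hnrnpa1 were lost when some single array was left out, for example at -2.16 for Snrpg, -2.21 for Snrpc, 1.75 for Lsm14b, 1.13 for Prpf6 and -1.88 for Hnrnpa1, each without the untimed fertilized Aph- array. Second probes of Hnrnpa2b1 and Srsf10 did not follow the first in the Aph comparisons.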

How the results depend on the processing

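Of 186 results for named genes, 74 kept their direction and call under all 20 alternatives. Of 3697 values from these, 3350 were unchanged in call and direction, 343 lost the call and 4 turned, all under scaling to the 75th percentile: Srsf2 for SCNT Aph+ against the oocyte (-0.17), U2af1l4 (0.23) and Srsf1 (-0.034) in fertilized Aph+ against Aph- embryos, and Hnrnpm in SCNT Aph+ against Aph- embryos (-0.037). The cause was not tested. Without background correction the lower calls against the oocyte came to 5 in fertilized Aph-, 5 in SCNT Aph-, 6 in fertilized Aph+, 6 in SCNT Aph+ embryos and 7 in cumulus cells. Over all genes they came to 1349, 1411, 1436, 1167 and 1350. Scaling to the 75th percentile gave, higher and lower, 12 and 20 in fertilized Aph+ embryos and 2 and 21 for SCNT Aph+ against the oocyte, 22 lower in cumulus cells, 3 and 28 for SCNT Aph+ against Aph-, 1 and 9 against cumulus cells, and 1 and 7 for the difference of the Aph effects. Over all genes the counts, in the same order, were 1183 and 2415, 208 and 2106, 2414 lower, 767 and 2244, 193 and 911, and 261 and 673. A fit of only the groups compared, with fewer samples, gave 10 and 7 for fertilized Aph+ embryos and 7 and 9 for cumulus cells against the oocyte, 1 lower for SCNT Aph- against fertilized Aph-, and 0 and 0 for SCNT Aph+ against cumulus cells. That last comparison gave 1 higher with the deposited values, 4 and 4 with no detection filter, 1 and 1 with detection on at least 3 arrays, and 1 lower with the mean of probes.

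The label type (untimed, 96 h or blastocyst) was not used to pair the arrays. Deviations of same-labelled arrays correlated between -0.25 and 0.15. Arrays of differing labels were not set beside these, so the values do not decide whether the arrays pair. With the label type as a replicate block, SCNT Aph+ against Aph- gave 4 higher and SCNT Aph+ against cumulus cells 1 and 1. That block ended the call of 20 of the 186 results for named genes. Leaving out 1 array gave 9 to 16 higher in fertilized Aph+ against Aph-, 4 to 8 higher in SCNT Aph+ against Aph-, and 1 to 2 higher and 1 to 6 lower in SCNT Aph+ against cumulus cells. The MII oocyte and SCNT Aph+ arrays were never left out. Signal over background limits the SCNT Aph+ array, on which 48 of the 68 genes were detected.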
